A study of Mus musculus with 14 samples.

Results

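Cdx1, Cdx2, Cdx4, Nkx1-2, Evx1 and Gbx2 are 6 homeobox genes, chosen by name as transcription factors of the caudal end of the embryo, out of 37991 genes in the files of mouse embryonic stem cells grown in different media. Nkx1-2 and Cdx1 were picked for their rise in medium with 2i, so every comparison of the 6 genes with 2i medium is given below as a description, without a test. Their Ensembl identifiers in the files are ENSMUSG00000024619 (Cdx1), ENSMUSG00000029646 (Cdx2), ENSMUSG00000031326 (Cdx4), ENSMUSG00000048528 (Nkx1-2), ENSMUSG00000005503 (Evx1) and ENSMUSG00000034486 (Gbx2). All 6 passed the filter on low counts, with which 16033 genes were tested. The cells were a C57BL/6 embryonic stem cell line with 2 reporters, mCherry for the mir-290 cluster and eGFP for the mir-302 cluster. In the media experiment, sparsely seeded cells spent 5 days in 1 of 5 media, with 2 libraries per medium. F/A was N2B27, a medium without serum, to which 20 ng/ml of activin A and 12 ng/ml of bFGF were added, in which cells take on the features of epiblast stem cells. L-Pro/LIF was serum medium with leukemia inhibitory factor (LIF), a cytokine that sustains self-renewal, and L-proline at a dose that the labels do not give for these samples. 2i/LIF held 2i, the inhibitors of the kinases MEK and GSK3. The labels list 2i among the additions to the serum and LIF medium, so 2i/LIF may have contained serum. VitC/LIF held vitamin C at 500 µM, and FBS/LIF was the serum and LIF medium alone. A second experiment had 4 single libraries of cells positive for both reporters, here called double-positive: day 0, whose serum and LIF medium also contained 100 µM vitamin C, F/A day 3, F/A day 5, and L-Pro day 5 in serum and LIF with L-proline at 1 mM. The F/A medium of these cells was N2B27 with 20 ng/ml of activin A and with bFGF, whose dose the labels do not give for this experiment. The 2 experiments differed in RNA extraction, cell population and vitamin C dose and were never pooled.

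Cdx1, Cdx2 and Cdx4 are the mouse relatives of the Drosophila gene caudal. Their proteins activate Hox genes during elongation of the body axis, downstream of Wnt, FGF and retinoic acid signals. Cdx2 is also a regulator of the trophectoderm, and Cdx1 and Cdx2 of the gut epithelium. Nkx1-2 marks the caudal epiblast and the neural progenitors that leave it, and Evx1, a relative of Drosophila even-skipped, is expressed in the primitive streak. Gbx2 acts in the hindbrain and at its border with the midbrain, and in mouse embryonic stem cells it is a target of LIF and STAT3. The GSK3 inhibitor of 2i stabilises beta-catenin, the effector of Wnt signalling, while the MEK inhibitor blocks the ERK pathway through which FGF acts.

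Mapped fragments per library ranged from 17778399 to 26354444 in the media experiment, apart from 6937945 in F/A replicate 1. Double-positive libraries held 33162689 to 39711061 counts. All 10 markers of pluripotent cells had fragments in every medium, with Pou5f1 at 431 FPKM or more in every library of the media experiment. Their summed level was 5474 to 6314 FPKM in FBS/LIF, 2185 to 2508 in L-Pro/LIF and 1046 to 1241 in F/A. FPKM stands for fragments scaled to effective gene length and to the mapped fragments of the library, so that FPKM levels of different genes can be set side by side. Whether a medium's 2 libraries are from different cultures is not stated in the labels, and p-values measure the spread between these libraries, which may be technical. In these bulk samples, a lower share of expressing cells and less RNA per cell cannot be told apart.

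The promoters of Cdx2, Cdx4, Evx1 and Nkx1-2 are shown because these genes differed between media in different ways. They are the 250 bases before the start of the gene in the RefSeq annotation of GRCm38.p6, at chr5:147307250-147307499 (minus strand) for Cdx2, chrX:103321148-103321397 (plus strand) for Cdx4, chr6:52313248-52313497 (plus strand) for Evx1 and chr7:132599638-132599887 (minus strand) for Nkx1-2. Capitals mark the octamer, ATGCAAAT or its reverse complement ATTTGCAT, which is the known binding sequence of POU proteins such as Oct4, and the CDX motif TTTATNG.
Cdx2: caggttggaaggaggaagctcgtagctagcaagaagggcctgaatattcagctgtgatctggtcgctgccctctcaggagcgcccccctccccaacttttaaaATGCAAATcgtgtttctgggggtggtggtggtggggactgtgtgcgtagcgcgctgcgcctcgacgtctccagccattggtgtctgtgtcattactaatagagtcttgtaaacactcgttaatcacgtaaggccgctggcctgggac
Cdx4: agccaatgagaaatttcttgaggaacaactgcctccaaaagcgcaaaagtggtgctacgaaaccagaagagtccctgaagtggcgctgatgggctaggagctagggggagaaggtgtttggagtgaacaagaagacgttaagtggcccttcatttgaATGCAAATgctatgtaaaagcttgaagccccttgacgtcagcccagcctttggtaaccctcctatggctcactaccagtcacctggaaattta
Evx1: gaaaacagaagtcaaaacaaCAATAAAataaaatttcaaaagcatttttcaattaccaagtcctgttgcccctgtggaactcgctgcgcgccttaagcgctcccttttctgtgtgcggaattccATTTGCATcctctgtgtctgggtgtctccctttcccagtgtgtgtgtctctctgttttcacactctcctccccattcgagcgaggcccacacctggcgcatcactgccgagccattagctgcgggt
Nkx1-2: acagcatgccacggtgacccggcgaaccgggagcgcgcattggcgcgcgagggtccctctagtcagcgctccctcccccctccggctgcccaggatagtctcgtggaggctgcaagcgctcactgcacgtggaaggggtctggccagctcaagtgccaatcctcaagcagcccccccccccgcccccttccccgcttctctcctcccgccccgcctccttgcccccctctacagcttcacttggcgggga
The octamer stood once each in the promoters of Cdx2 (bases -147 to -140 from the start), Cdx4 (-93 to -86) and Evx1 (-126 to -119), and not in those of Nkx1-2 and Gbx2. It was searched for after these sequences had been seen, and 1.60% of 32851 RefSeq promoters of the same length held it on either strand. The CDX motif was found once, on the minus strand of Evx1 at bases -230 to -224 as CAATAAA, and in 9.81% of all promoters. No match was found in these 5 windows for the TCF/LEF motif CTTTGAT (3.21% of all promoters), the retinoic acid receptor half-site AGGTCA (14.0%) or the STAT motif TTCNNNGAA (7.02%), and no 2 matches overlapped. A match is a string of letters and not a measured site. The Nkx1-2 window was the richest in G and C at 69.6%, with 19 CpG dinucleotides, against 48.4% and 5 CpG dinucleotides in Cdx4, and the medians of all promoters were 52.4% and 6.

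The 6 genes had 6 different profiles over the media. Nkx1-2 spanned the widest range, with its highest mean 431 times its lowest, followed by Evx1 (53.8 times), Cdx1 (53.0 times), Cdx4 (15.7 times), Cdx2 (11.7 times) and Gbx2 (8.13 times). Nkx1-2 and Evx1 were highest in F/A, Cdx1 and Cdx2 in 2i/LIF, Cdx4 in L-Pro/LIF and Gbx2 in FBS/LIF. Depth differed widely behind these values: 10 or more unique fragments were counted in 10 of the 10 libraries for Gbx2, in 9 for Cdx2, 7 for Cdx1, 6 for Nkx1-2, 5 for Evx1 and 3 for Cdx4. At least 81.6% of the estimated fragments of each gene in each library hit that gene alone. Whether the libraries of 2 media overlap is given below as a description. The share of all genes without overlap was not counted.

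**Figure D1:**
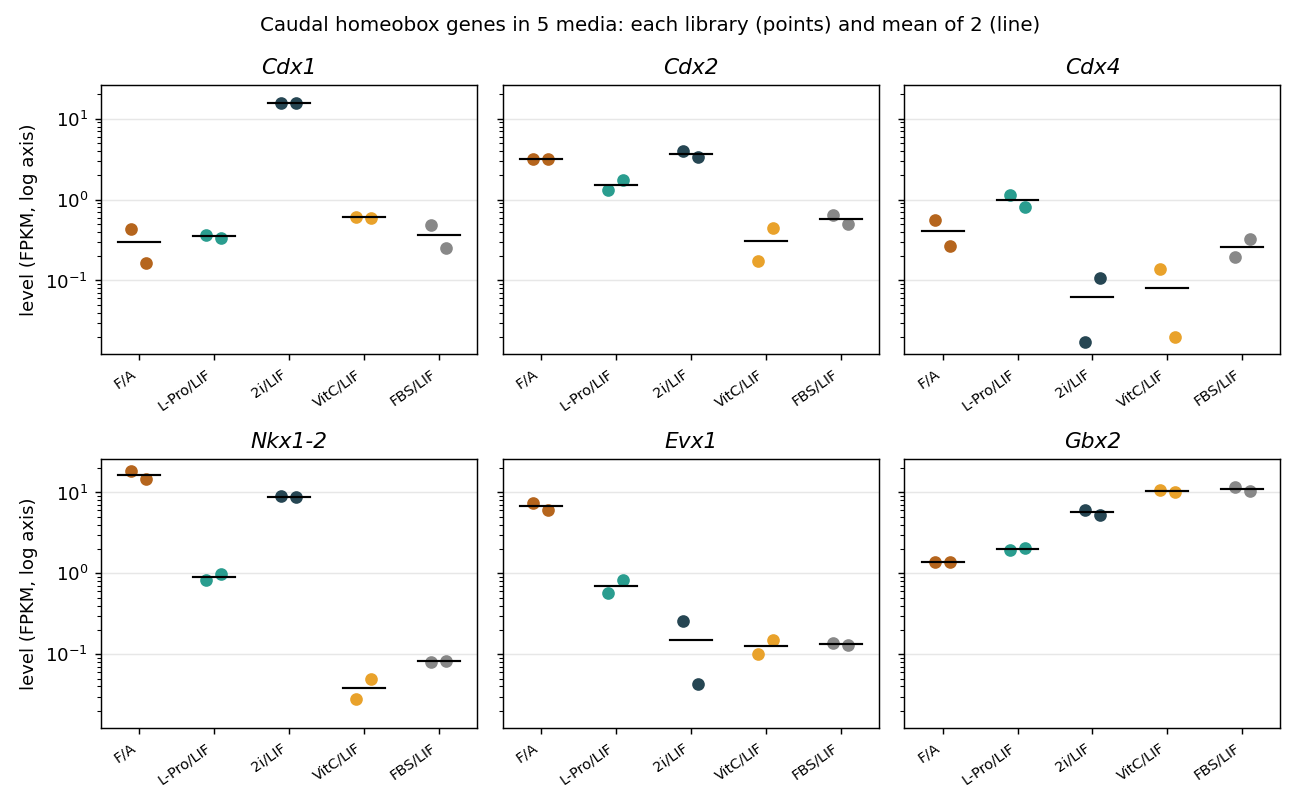
Level in FPKM (log axis) of each gene in F/A, L-Pro/LIF, 2i/LIF, VitC/LIF and FBS/LIF, with a point for each of the 2 libraries and a line at their mean. Nkx1-2 is above 8 FPKM in F/A and 2i/LIF, Evx1 above 6 FPKM in F/A and Cdx1 above 15 FPKM in 2i/LIF.

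Cdx1 stood at 15.8 FPKM in both libraries of 2i/LIF. In the other media it measured 0.434 and 0.162 FPKM in F/A, 0.363 and 0.338 FPKM in L-Pro/LIF, 0.613 and 0.596 FPKM in VitC/LIF, and 0.486 and 0.254 FPKM in FBS/LIF. The 2i/LIF libraries thus lay far above all others, VitC/LIF came next without overlap, and F/A, L-Pro/LIF and FBS/LIF overlapped one another. The level in 2i/LIF was 42.0-fold that in FBS/LIF (log2 fold change 5.39, SE 0.35, a description). Behind it were 944 unique fragments in the 2 libraries of 2i/LIF, against 26 in those of FBS/LIF.

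Cdx2 was high in both 2i/LIF and F/A. It measured 3.94 and 3.34 FPKM in 2i/LIF, 3.19 and 3.20 FPKM in F/A, 1.30 and 1.72 FPKM in L-Pro/LIF, 0.172 and 0.451 FPKM in VitC/LIF, and 0.646 and 0.503 FPKM in FBS/LIF. No neighbours in this order overlapped, though 2i/LIF and F/A were within 1.33-fold of each other in the fit (log2 fold change 0.41, SE 0.35). Its level in 2i/LIF was 6.37-fold that in FBS/LIF (log2 fold change 2.67, SE 0.37, a description).

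Cdx4, the third caudal relative, was the sparsest of the genes and was highest in L-Pro/LIF. It measured 1.15 and 0.815 FPKM in L-Pro/LIF, 0.553 and 0.265 FPKM in F/A, 0.0173 and 0.108 FPKM in 2i/LIF, 0.140 and 0.0203 FPKM in VitC/LIF, and 0.194 and 0.327 FPKM in FBS/LIF. L-Pro/LIF lay above all other libraries, while F/A overlapped with FBS/LIF and 2i/LIF with VitC/LIF. The unique fragments summed over the 2 libraries were 81 in L-Pro/LIF, 16 in F/A, 5 in 2i/LIF, 6 in VitC/LIF and 21 in FBS/LIF.

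Nkx1-2 was lowest in VitC/LIF and FBS/LIF. It measured 18.5 and 14.6 FPKM in F/A, 9.06 and 8.68 FPKM in 2i/LIF, 0.820 and 0.972 FPKM in L-Pro/LIF, 0.0277 and 0.0490 FPKM in VitC/LIF, and 0.0809 and 0.0835 FPKM in FBS/LIF. No 2 media overlapped. In 2i/LIF the level was 100.5-fold that in FBS/LIF (log2 fold change 6.65, SE 0.43, a description), and in 2i/LIF over F/A the log2 fold change was -0.65 (SE 0.16). Only 12 unique fragments stood behind the FBS/LIF level and 5 behind that of VitC/LIF, against 1178 in F/A and 1012 in 2i/LIF.

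Evx1 shared the high level of Nkx1-2 in F/A but not that in 2i/LIF. It measured 7.41 and 6.06 FPKM in F/A, 0.580 and 0.818 FPKM in L-Pro/LIF, 0.258 and 0.0424 FPKM in 2i/LIF, 0.0994 and 0.151 FPKM in VitC/LIF, and 0.136 and 0.130 FPKM in FBS/LIF. The 3 lowest media overlapped, and F/A and L-Pro/LIF each stood apart. In 2i/LIF over F/A its log2 fold change was -5.17 (SE 0.58), against 6.05 (SE 0.49) for Cdx1.

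Gbx2 was lowest in F/A and highest in FBS/LIF. It measured 1.38 and 1.36 FPKM in F/A, 1.93 and 2.07 FPKM in L-Pro/LIF, 6.03 and 5.32 FPKM in 2i/LIF, 10.6 and 10.0 FPKM in VitC/LIF, and 11.8 and 10.5 FPKM in FBS/LIF. VitC/LIF and FBS/LIF overlapped, and the other neighbours did not. In 2i/LIF over FBS/LIF the log2 fold change was -0.94 (SE 0.13, a description).

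Because FPKM accounts for length, the make-up of the 6-gene total can be read within a medium. Summed over the 6 genes, the level was 25.7 and 31.4 FPKM in the 2 libraries of F/A, 6.14 and 6.73 in L-Pro/LIF, 33.3 and 35.1 in 2i/LIF, 11.3 and 11.7 in VitC/LIF, and 11.8 and 13.3 in FBS/LIF, each pair given as the lower and the higher library. Nkx1-2 made up 57.9% of the total of mean levels in F/A and Evx1 23.6%. In L-Pro/LIF the total was the most even, with Gbx2 at 31.1%, Cdx2 at 23.5%, Cdx4 at 15.2% and Nkx1-2 at 13.9%. Cdx1 made up 46.2% and Nkx1-2 25.9% in 2i/LIF. Gbx2 held 89.9% of the total in VitC/LIF and 88.7% in FBS/LIF.

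**Figure D2:**
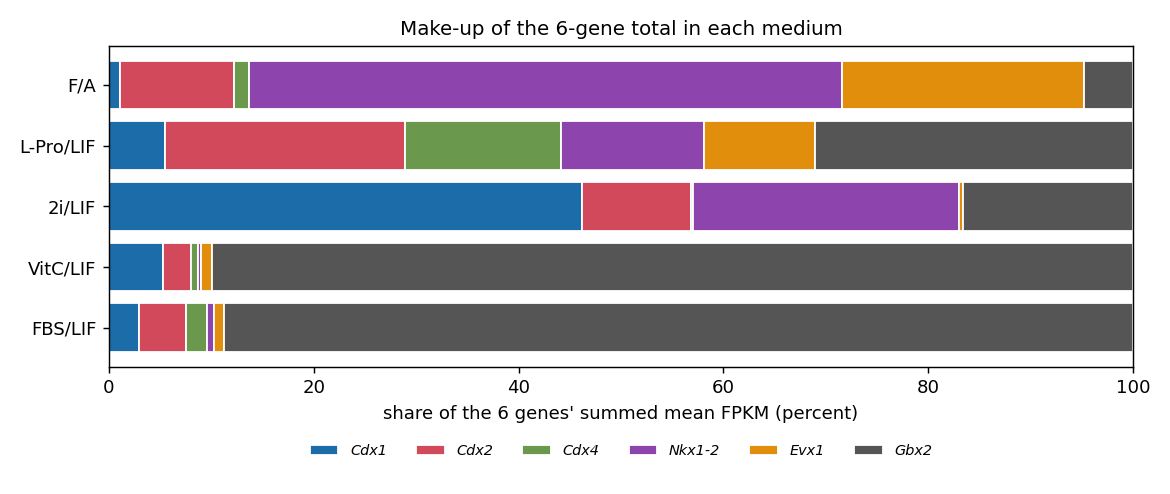
Share of each gene in the summed mean FPKM of the 6 genes (percent) in each medium, F/A at the top and FBS/LIF at the bottom. Gbx2 fills most of the bars of VitC/LIF (89.9%) and FBS/LIF (88.7%), Nkx1-2 most of that of F/A (57.9%), and Cdx1 the largest part of that of 2i/LIF (46.2%).

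F/A was compared with FBS/LIF to see how cells moved out of serum and LIF into an epiblast-like state express these genes. Nkx1-2 rose most of the 6, to a level 158-fold that of FBS/LIF (log2 fold change 7.30, SE 0.43, adjusted p = 2.58e-07). Evx1 rose 41.8-fold (log2 fold change 5.38, SE 0.58, adjusted p = 0.000197) and Cdx2 rose 4.78-fold (log2 fold change 2.26, SE 0.37, adjusted p = 0.00186). Gbx2 fell by 3.23 (log2, with an SE of 0.15 and adjusted p = 1.38e-06). These p-values are from edgeR's quasi-likelihood test with Benjamini-Hochberg adjustment over all genes. FBS/LIF was also in the comparison by which Nkx1-2 and Cdx1 were picked, so their p-values over FBS/LIF are not independent of that choice. In all, 3 of the 6 genes were called higher and 1 lower at an adjusted p under 0.05, and 46.4% of all genes tested were called in this comparison, 24.4% higher and 22% lower, so that the share alone does not set the 6 apart. Cdx1 (log2 fold change -0.66, SE 0.53, adjusted p = 0.271) and Cdx4 (0.35, SE 0.71, adjusted p = 0.709) did not pass. Without F/A replicate 1 the value of Cdx4 turned to -0.13, and the 4 calls held without any 1 of the 4 libraries.

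L-proline was compared with the same FBS/LIF libraries, so the 2 comparisons share their control. Here Nkx1-2 rose 9.69-fold (log2 fold change 3.28, SE 0.44, adjusted p = 5.83e-05), Evx1 rose 5.05-fold (2.34, SE 0.59, adjusted p = 0.0194) and Cdx2 rose 2.55-fold (1.35, SE 0.37, adjusted p = 0.0306). Gbx2 fell by 2.51 (log2, with an SE of 0.13 and adjusted p = 1.31e-05). Again 3 genes were called higher and 1 lower, where 24% of all genes tested were called, 13.7% higher and 10.3% lower. Cdx4 was at 0.981 ± 0.24 FPKM in L-Pro/LIF and 0.260 ± 0.094 FPKM in FBS/LIF (SD, n = 2 each) and missed the threshold (log2 fold change 1.81, SE 0.64, adjusted p = 0.0749). With counts of unique fragments in place of estimated counts it passed (adjusted p = 0.0335). Cdx1 did not pass (log2 fold change -0.13, SE 0.40, adjusted p = 0.854). The call of Cdx2 was lost without any 1 of the 4 libraries (adjusted p between 0.0560 and 0.172), and that of Evx1 without L-Pro/LIF replicate 2 (0.1003), FBS/LIF replicate 1 (0.109) or FBS/LIF replicate 2 (0.0970). These 2 losses left 2 or 3 called genes of 6, and the value of Cdx1 turned to 0.38 without FBS/LIF replicate 1.

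VitC/LIF against FBS/LIF gave no call. With edgeR, 0 of the 6 genes passed at an adjusted p under 0.05 or at an unadjusted p under 0.05, and 0 passed with DESeq2, where edgeR called 0.674% of all genes, 0.362% higher and 0.312% lower. The value closest to the threshold was that of Cdx2 (log2 fold change -0.85, SE 0.42, adjusted p = 0.517). Nkx1-2 (-0.95, SE 0.77) and Cdx4 (-1.50, SE 0.83) had lower values in VitC/LIF and Cdx1 (0.66, SE 0.39) a higher one, without passing. In VitC/LIF these values rested on 5 unique fragments of Nkx1-2 and 6 of Cdx4.

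**Figure D3:**
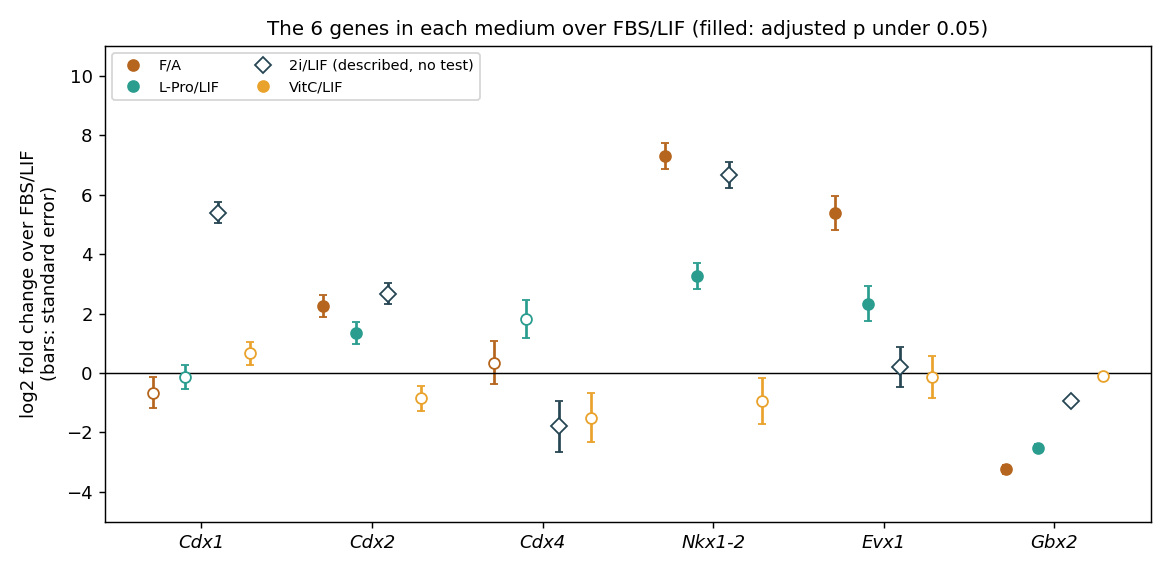
Log2 fold change of each gene over FBS/LIF in F/A, L-Pro/LIF, 2i/LIF and VitC/LIF, with bars for the standard error. Filled points passed an adjusted p under 0.05, and diamonds for 2i/LIF are a description. Nkx1-2, Evx1 and Cdx2 are above 0 and Gbx2 below 0 in both F/A and L-Pro/LIF, and no VitC/LIF point is filled.

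Against VitC/LIF in place of FBS/LIF, L-Pro/LIF had 4 genes higher and 1 lower of 6, where 29.8% of all genes were called, 16.8% higher and 13% lower. Nkx1-2 rose by 4.23 (SE 0.66), Cdx4 by 3.31 (SE 0.79, adjusted p = 0.0101), Evx1 by 2.47 (SE 0.63, adjusted p = 0.0146) and Cdx2 by 2.20 (SE 0.41) on the log2 scale, and Gbx2 fell by 2.40 (SE 0.13). Cdx4 lost the call without L-Pro/LIF replicate 1 (adjusted p = 0.0513) or VitC/LIF replicate 2 (0.0767), and Evx1 without L-Pro/LIF replicate 2 (0.0764) or either VitC/LIF library (0.101 and 0.0600), and without VitC/LIF replicate 2 the count was 3. In F/A over VitC/LIF, 3 genes were higher and 2 lower, where 50.5% of all genes were called, 26.8% higher and 23.7% lower. Nkx1-2 rose by 8.25 (SE 0.65), Evx1 by 5.52 (SE 0.61) and Cdx2 by 3.11 (SE 0.41) on the log2 scale, and Gbx2 fell by 3.12 (SE 0.15). Cdx1 fell as well, by 1.32 (SE 0.52, adjusted p = 0.0377), a call on 10 unique fragments in F/A against 35 in VitC/LIF. It was lost without F/A replicate 2 (log2 fold change -0.69, adjusted p = 0.362) or either VitC/LIF library (adjusted p = 0.113 and 0.0829). Cdx4 did not pass (log2 fold change 1.85, SE 0.85, adjusted p = 0.0887).

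F/A and L-Pro/LIF were also compared directly. In F/A over L-Pro/LIF, 2 of the 6 genes were higher and 1 lower, where 22% of all genes were called, 11.1% higher and 10.9% lower. Nkx1-2 rose by 4.02 (log2, with an SE of 0.17 and adjusted p = 7.78e-06) and Evx1 by 3.05 (SE 0.48, adjusted p = 0.00577). Gbx2 fell by 0.72 (SE 0.15, adjusted p = 0.0119). Cdx2 (log2 fold change 0.91, SE 0.35, adjusted p = 0.0963), Cdx4 (-1.46, SE 0.67, adjusted p = 0.141) and Cdx1 (-0.53, SE 0.53, adjusted p = 0.424) did not pass. Evx1 lost its call without L-Pro/LIF replicate 1 (adjusted p = 0.0563), Gbx2 without L-Pro/LIF replicate 2 (0.0714), and Cdx1 turned to 0.11 without F/A replicate 2.

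The double-positive libraries followed the genes over time in F/A, with 1 library per point, so that no test was possible. Values are CPM, counts scaled to a common library total and comparable within a gene, and intervals are exact 95% intervals that cover counting error only. At day 0 Cdx2 had 0 of 34149515 counts (exact upper limit 0.108 CPM), and 3 counts there would be 0.0878 CPM. Cdx2 reached 2.02 CPM (1.58 to 2.55) at F/A day 3 and 4.61 CPM (3.91 to 5.41) at F/A day 5. With day 0 set at 3 counts these values were 23.0-fold and 52.5-fold higher, ratios that leave out the counting error of the F/A libraries. Nkx1-2 had 0.498 CPM (0.290 to 0.797) at day 0, 10.4 CPM (9.38 to 11.5) at F/A day 3 and 55.3 CPM (52.8 to 57.9) at F/A day 5. The last value was 111-fold that at day 0 (69.2 to 191).

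Evx1 was highest at F/A day 5, with most of the increase after F/A day 3. It had 0.351 CPM (0.182 to 0.614) at day 0, 1.29 CPM (0.945 to 1.72) at F/A day 3 and 14.7 CPM (13.4 to 16.1) at F/A day 5. Between F/A day 5 and F/A day 3 it was 11.4-fold higher (8.41 to 15.8), against 5.31-fold (4.75 to 5.95) for Nkx1-2. Cdx4 stood at 0.674 CPM (0.427 to 1.01) at day 0, 2.02 CPM (1.58 to 2.55) at F/A day 3 and 0.995 CPM (0.685 to 1.40) at F/A day 5, so that its day 3 value was the highest of the 3. Cdx1 was highest at day 0, at 6.15 CPM (5.35 to 7.04), and had 0.730 CPM (0.477 to 1.07) at F/A day 3 and 1.30 CPM (0.938 to 1.75) at F/A day 5. Gbx2 had 26.7 CPM (25.03 to 28.5) at day 0, 36.8 CPM (34.8 to 38.8) at F/A day 3 and 2.71 CPM (2.18 to 3.34) at F/A day 5. It was 13.5-fold lower at F/A day 5 than at F/A day 3 (10.9 to 17.0).

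**Figure D4:**
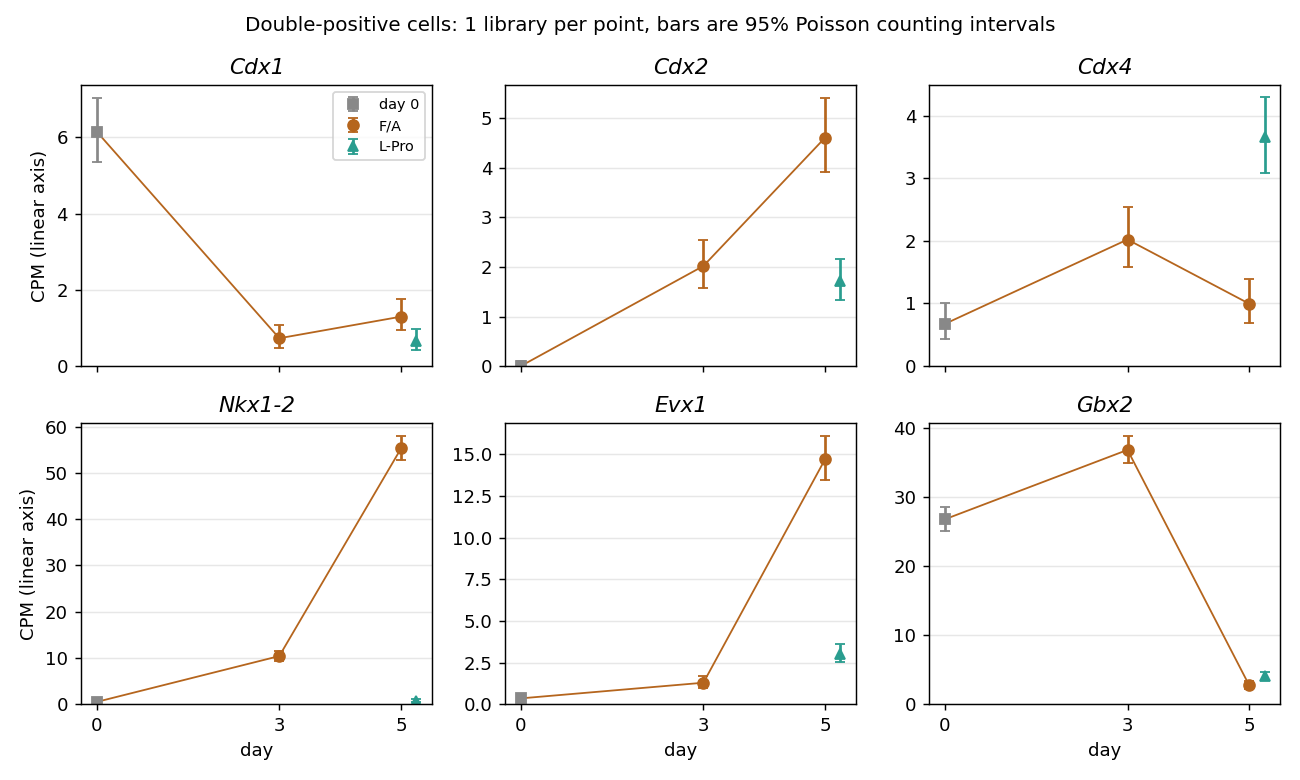
CPM (linear axes that differ between panels) of each gene in double-positive cells by day, with 95% Poisson counting intervals. Squares are day 0, circles joined by a line F/A, and the triangle, drawn slightly to the right of day 5, is L-Pro day 5. Nkx1-2 and Evx1 are highest at F/A day 5, Cdx4 at L-Pro day 5, Gbx2 at F/A day 3 and Cdx1 at day 0.

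With a call set at a 2-fold ratio and at least 10 counts in the higher library, 4 of the 6 genes were higher and 1 lower at F/A day 3 than at day 0, where 36% of all genes passed that rule, 21.5% higher and 14.4% lower. At F/A day 5 over day 0 the numbers were 3 higher and 2 lower, with 41.6% of all genes past the rule, 22.5% higher and 19.2% lower. At F/A day 5 over F/A day 3 they were 3 higher and 2 lower, with 25.4% of all genes, 10.5% higher and 14.9% lower. L-Pro day 5 over day 0 had 3 higher and 2 lower, with 39.7% of all genes, 21.8% higher and 17.9% lower. There Evx1 had 3.02 CPM (2.51 to 3.61), 8.60-fold its day 0 level (4.75 to 17.1), and Cdx4 had 3.65 CPM (3.08 to 4.30), 5.42-fold (3.48 to 8.82). Cdx2 had 1.71 CPM (1.33 to 2.17) and was 19.5-fold higher than at day 0 with day 0 set at 3 counts. Nkx1-2 had 0.806 CPM (0.551 to 1.14), a ratio of 1.62 whose interval includes 1 (0.872 to 3.11). In the media experiment, with FBS/LIF as the control, Nkx1-2 was 9.69-fold higher in L-Pro/LIF. Cdx1 was 9.39-fold lower (6.23 to 14.7) and Gbx2 6.59-fold lower (5.57 to 7.85) than at day 0.

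Between the 2 day 5 libraries, L-Pro over F/A, 1 gene was higher and 3 lower, where 19.2% of all genes passed the rule, 10.7% higher and 8.41% lower. Cdx4 was 3.67-fold higher with L-Pro (2.50 to 5.53). Nkx1-2 was 68.6-fold lower (48.4 to 100.6), Evx1 4.87-fold lower (3.98 to 6.00) and Cdx2 2.69-fold lower (2.01 to 3.64). Gbx2 had a ratio of 1.49 (1.15 to 1.96) and Cdx1 of 0.505 (0.298 to 0.841). In the media experiment, F/A over L-Pro/LIF had a log2 fold change of 4.02 for Nkx1-2, 3.05 for Evx1 and -1.46 for Cdx4, the last without passing its test. It was -0.72 for Gbx2, and 0.91 for Cdx2 and -0.53 for Cdx1 without passing. Cdx1 alone differed in direction between the 2 experiments. Scaled by the trimmed mean of M-values, or taken from the authors' deposited table of normalized values, every ratio with an interval stayed within it. The ratios of Cdx2 over day 0, set at 3 counts, under the trimmed mean scaling were 22.1 at F/A day 3, 51.8 at F/A day 5 and 19.6 at L-Pro day 5. The ratio of Cdx4 at F/A day 5 over F/A day 3 was 0.492 and became 0.505 under it, which is inside the 2-fold limit.

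The F/A day 3 library stood apart in its Hox genes. Summed over the list, Hox genes of groups 1 to 4 had 1.67 CPM at day 0, 71.4 CPM at F/A day 3, 21.3 CPM at F/A day 5 and 2.14 CPM at L-Pro day 5. Groups 5 to 9 had 1.82 CPM at day 0, 23.3 CPM at F/A day 3, 1.42 CPM at F/A day 5 and 1.81 CPM at L-Pro day 5. Groups 10 to 13 had 1.43 CPM at day 0, 11.8 CPM at F/A day 3, 1.96 CPM at F/A day 5 and 2.62 CPM at L-Pro day 5. Gbx1, the closest relative of Gbx2, had 36 counts at day 0, 100 at F/A day 3, 7 at F/A day 5 and 19 at L-Pro day 5. The more distant homeobox gene Gsx1 had 14 counts at day 0, 57 at F/A day 3, 0 at F/A day 5 and 1 at L-Pro day 5. The part of these libraries' differences in the values of Gbx2, Cdx4 and the other genes at day 3 was not tested. In the media experiment the Hox genes of groups 1 to 4 summed to 3.51 to 5.15 FPKM in F/A, 2.46 to 2.60 in L-Pro/LIF, 1.64 to 2.53 in 2i/LIF, 0.428 to 0.487 in VitC/LIF and 0.583 to 1.26 in FBS/LIF. Groups 10 to 13 summed to 1.04 to 1.47 FPKM in F/A, 1.62 to 1.65 in L-Pro/LIF, 4.66 to 5.86 in 2i/LIF, 0.827 to 0.841 in VitC/LIF and 1.37 to 1.75 in FBS/LIF. Groups 5 to 9 summed to at most 1.53 FPKM in any library, and 3 of the 15 passed the filter on low counts. With edgeR 0 of these 3 and 0 of the 4 tested genes of groups 10 to 13 were called in F/A or L-Pro/LIF over FBS/LIF, and without F/A replicate 2 in groups 5 to 9, or without F/A replicate 1 or FBS/LIF replicate 2 in groups 10 to 13, 1 was called lower in F/A. Of all genes 46.4% were called in F/A over FBS/LIF (24.4% higher and 22% lower) and 24% in L-Pro/LIF over FBS/LIF. Of groups 1 to 4, all 3 tested genes were called higher in F/A, Hoxb1 and Hoxd1 among them. Hoxb1 had 34 unique fragments in F/A against 2 in FBS/LIF. In 2i/LIF over FBS/LIF, 2 of the 4 tested genes of groups 10 to 13 were called higher and 1 lower. Of all genes 30.4% were called there, 12.5% higher and 17.9% lower. Hoxc12 was at 2.18 ± 0.29 FPKM in 2i/LIF and 0.0439 ± 0.062 FPKM in FBS/LIF (SD, n = 2 each), on 70 and 2 unique fragments (edgeR, adjusted p = 0.0128), and Hoxc13 was the other (log2 fold change 2.46, SE 0.37). The higher count of groups 10 to 13 was 1 without FBS/LIF replicate 2 or either 2i/LIF library. The lower gene was Hoxd13, and no gene of groups 10 to 13 was called lower without 2i/LIF replicate 1 or either FBS/LIF library. Hoxd8 was called lower among groups 5 to 9 in 2i/LIF, and no gene of these groups was called lower without any 1 of the 4 libraries.

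Other genes of the caudal epiblast and of Wnt signalling were counted from lists. Over all genes tested, 46.4% were called in F/A over FBS/LIF (24.4% higher and 22% lower), 24% in L-Pro/LIF (13.7% higher and 10.3% lower) and 30.4% in 2i/LIF (12.5% higher and 17.9% lower), with medians of 0.05, 0.01 and -0.04 on the log2 scale, and the count of each list stands against these. Of 20 caudal epiblast and neuromesodermal genes tested, 14 rose and 3 fell in F/A, with a median log2 fold change of 2.56 against 0.05 for all genes. In L-Pro/LIF 8 rose and 4 fell (median 0.29, all genes 0.01). T, the gene of brachyury, rose by 8.81 in F/A (SE 0.28) and 5.89 in L-Pro/LIF (SE 0.28), and Fgf8 by 7.19 (SE 0.61) and 5.95 (SE 0.61) on the log2 scale. Rspo3, which encodes an enhancer of Wnt signals, rose by 5.82 in F/A (SE 0.45) and 2.95 in L-Pro/LIF (SE 0.46). Msgn1 of the presomitic mesoderm had no unique fragment in FBS/LIF and was 20.5-fold higher in F/A, with FBS/LIF set at a floor of 3 fragments over the group. Sall4 was at 66.7 ± 12 FPKM in F/A and 58.3 ± 17 FPKM in FBS/LIF (SD, n = 2 each). In 2i/LIF over FBS/LIF, 4 of the 20 rose and 6 fell (median -0.08, all genes -0.04). The Notch ligand gene Dll1 fell by 4.67 on the log2 scale (SE 0.42), the retinoic acid degrading enzyme gene Cyp26a1 by 3.55 (SE 0.78) and Fgf17 by 3.04 (SE 0.18). Rspo3 had no unique fragment in 2i/LIF and was 4.07-fold lower with 2i/LIF set at the same floor. Without L-Pro/LIF replicate 1 or 2, the lower count in L-Pro/LIF was 2.

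Of 19 Wnt targets, 16 rose and 1 fell in F/A (median log2 fold change 2.72), 8 rose and 1 fell in L-Pro/LIF (median 0.64), and 8 rose and 4 fell in 2i/LIF (median 0.35), each over FBS/LIF, where 46.4%, 24% and 30.4% of all genes were called. The transcription factor gene Sp5 rose in all 3, by 4.50 in F/A (SE 0.25), 4.04 in L-Pro/LIF (SE 0.25) and 3.44 in 2i/LIF (SE 0.25). Axin2, a feedback inhibitor of the pathway, rose by 3.47 in 2i/LIF (SE 0.20). Notum, an inhibitor that acts on Wnt proteins, fell by 5.45 in F/A (SE 0.44) and 3.99 in L-Pro/LIF (SE 0.27). In 2i/LIF the cyclin gene Ccnd2 fell by 4.97 (SE 0.67). Tcf7 was at 4.60 ± 0.12 FPKM in 2i/LIF and 3.62 ± 0.98 FPKM in FBS/LIF (SD, n = 2 each) without passing (adjusted p = 0.527). T is on this list and on the caudal and streak lists, so the counts overlap. Without either 2i/LIF library the lower count in 2i/LIF was 2, without F/A replicate 2 the lower count in F/A was 2, and without L-Pro/LIF replicate 2 that in L-Pro/LIF was 2.

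Of 18 genes of the primitive streak and mesoderm, 15 rose and 1 fell in F/A (median log2 fold change 3.62), 7 rose and 1 fell in L-Pro/LIF (median 0.95), and 4 rose and 3 fell in 2i/LIF (median -0.0043), against 46.4%, 24% and 30.4% of all genes called. The 2i/LIF count is not far from that share. Mixl1 rose by 7.40 in F/A (SE 0.53) and 3.38 in L-Pro/LIF (SE 0.55). Wnt3, the signal that precedes the streak, rose by 3.82 in L-Pro/LIF (SE 0.21) and fell by 3.40 in 2i/LIF (SE 0.57). The single lower gene in L-Pro/LIF lost its call without any 1 of the 4 libraries, that in F/A became 2 without F/A replicate 2, and the 3 lower in 2i/LIF became 1 without either 2i/LIF library or FBS/LIF replicate 2.

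**Figure D5:**
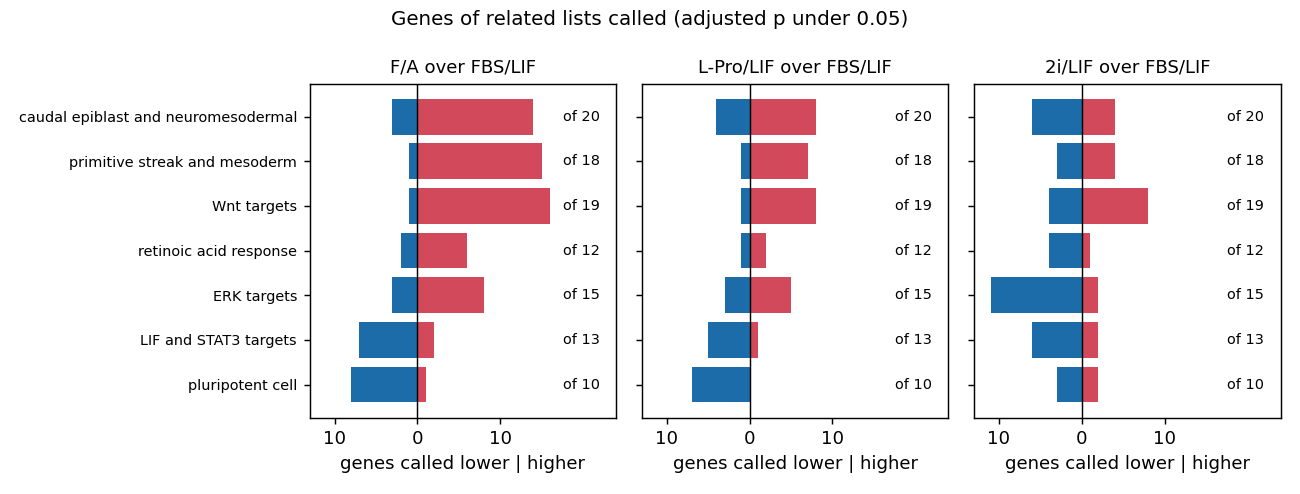
Number of genes of each list called higher (to the right) and lower (to the left) at an adjusted p under 0.05 in F/A, L-Pro/LIF and 2i/LIF over FBS/LIF, with the number tested at the right edge. Wnt targets are mostly higher in F/A (16 of 19), and ERK targets mostly lower in 2i/LIF (11 of 15).

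Genes that answer to retinoic acid, ERK, and LIF and STAT3 were counted in the same way, beside 46.4% of all genes called in F/A, 24% in L-Pro/LIF and 30.4% in 2i/LIF. Of 12 retinoic acid response genes, 6 rose and 2 fell in F/A, 2 rose and 1 fell in L-Pro/LIF, and 1 rose and 4 fell in 2i/LIF (median log2 fold changes 1.37, 0.48 and -1.08). The 3 called of 12 in L-Pro/LIF are near the share of all genes, and no result is read from them. Those higher were 1 in L-Pro/LIF and 0 in 2i/LIF when replicate 2 of FBS/LIF, or of the medium itself, was left out. Cyp26a1 rose by 3.88 in F/A on the log2 scale (SE 0.45). Of 15 ERK targets, 8 rose and 3 fell in F/A, 5 rose and 3 fell in L-Pro/LIF, and 2 rose and 11 fell in 2i/LIF (medians 0.95, 0.30 and -1.30). The phosphatase gene Dusp4 rose by 2.30 in F/A (SE 0.13) and 1.64 in L-Pro/LIF (SE 0.13) and fell by 4.11 in 2i/LIF (SE 0.27). Of 13 LIF and STAT3 targets, 2 rose and 7 fell in F/A, 1 rose and 5 fell in L-Pro/LIF, and 2 rose and 6 fell in 2i/LIF (medians -1.46, -0.78 and -0.75). The single rise in L-Pro/LIF was lost without any 1 of the 4 libraries. Socs3, the feedback inhibitor of STAT3, fell by 2.78 in F/A (SE 0.16) and 1.18 in L-Pro/LIF (SE 0.15), as Gbx2 did in both, and was at 34.4 ± 1.7 FPKM in 2i/LIF and 32.99 ± 2.2 FPKM in FBS/LIF (SD, n = 2 each). Leaving out 1 library moved several of the smaller counts: in L-Pro/LIF the ERK targets higher became 2 or 3 without either L-Pro/LIF library or replicate 1 of FBS/LIF, and those lower 0 or 1 without any of the 4. In F/A the ERK targets higher became 5 without FBS/LIF replicate 1 or F/A replicate 1, and those lower 0 without FBS/LIF replicate 2. In 2i/LIF the ERK targets higher became 1 without FBS/LIF replicate 1 or 2i/LIF replicate 2.

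Markers of other cell types were checked, against the same shares of all genes called (46.4% in F/A, 24% in L-Pro/LIF and 30.4% in 2i/LIF). Of 18 trophectoderm genes tested, 5 rose and 9 fell in F/A, 6 rose and 6 fell in L-Pro/LIF, and 6 rose and 9 fell in 2i/LIF (medians -0.34, 0.22 and -0.52). In L-Pro/LIF those higher became 3 without L-Pro/LIF replicate 2 or either FBS/LIF library, and those lower 3 without replicate 1 of either medium, and in F/A those higher became 3 without FBS/LIF replicate 2. Their summed level was 388 to 482 FPKM in F/A, 565 to 597 in L-Pro/LIF, 173 to 177 in 2i/LIF, 294 to 296 in VitC/LIF and 288 to 291 in FBS/LIF. Krt8 was the largest part of it in L-Pro/LIF, at 315 FPKM against 72.0 FPKM in FBS/LIF. The trophectoderm regulators Elf5 and Gata3 reached at most 0.745 and 0.860 FPKM in any library of the media experiment, and Hand1 and Plac1 had no unique fragment in 2i/LIF. Endoderm and gut genes summed to 34.8 to 50.1 FPKM in F/A, 11.8 to 11.9 in L-Pro/LIF, 17.0 to 19.1 in 2i/LIF, 12.1 to 15.6 in VitC/LIF and 14.4 to 20.6 in FBS/LIF, and of 12 tested, 7 rose and 1 fell in F/A (median 2.50), the single fall being lost without FBS/LIF replicate 2. The intestinal genes Cdh17 and Isx were at most at 0.179 and 0.0223 FPKM in any library. Of 11 fibroblast markers tested, 7 rose and 1 fell in F/A (median 1.97), 9 rose in L-Pro/LIF (median 2.28), and 1 rose and 5 fell in 2i/LIF (median -2.10). Their summed level was 18.8 to 19.8 FPKM in F/A, 20.8 to 22.9 in L-Pro/LIF, 2.51 to 2.64 in 2i/LIF, 21.4 to 22.3 in VitC/LIF and 8.17 to 8.58 in FBS/LIF, so that it was about as high in VitC/LIF as in L-Pro/LIF. Without FBS/LIF replicate 1 those higher became 4 in F/A and 3 in L-Pro/LIF, and without L-Pro/LIF replicate 1 they became 5 there. The fall in F/A was lost without F/A replicate 1 or either FBS/LIF library, and those lower in 2i/LIF became 3 without 2i/LIF replicate 2. Of 11 anterior and hindbrain neural genes, 4 were higher and 0 lower in F/A (median 1.32). That is below the 46.4% of all genes called in either direction and above the 24.4% called higher. In L-Pro/LIF 2 were higher (median 0.60) and in 2i/LIF 3 were lower (median -2.45), both below the share of all genes called in either direction. Those lower became 5 in 2i/LIF without 2i/LIF replicate 2 and 1 in F/A without F/A replicate 2. Pluripotent cell markers had 8 of 10 lower in F/A (median -1.42) and 7 of 10 lower in L-Pro/LIF (median -0.78). In VitC/LIF over FBS/LIF 1 caudal epiblast gene (Fst, lower) and 1 fibroblast marker (Acta2, higher) were called over all lists, both lost without any 1 of the 4 libraries. In double-positive cells the trophectoderm genes summed to 830 CPM at day 0, 161 at F/A day 3, 798 at F/A day 5 and 1397 at L-Pro day 5. Different genes made up these sums. Esrrb had 645 CPM at day 0 and 1.63 CPM at F/A day 5. Krt8 and Krt18 had 3.10 and 3.37 CPM at day 0, and 401 and 156 CPM at F/A day 5. At day 0 and L-Pro day 5, Gata3 had 10 and 83 counts, Hand1 2 and 65, Plac1 2 and 8, and Elf5 0 and 0. The fibroblast markers summed to 29.3 CPM at day 0, 36.6 at F/A day 3, 30.3 at F/A day 5 and 159 at L-Pro day 5. The part of these cell types in the values of the 6 genes was not tested.

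Relatives of the 6 genes were barely measured. Of Evx2, Nkx1-1, Gbx1, Pdx1, Gsx1 and Gsx2, Gbx1 alone passed the filter on low counts. It was called in none of the comparisons over FBS/LIF, with 0.595 ± 0.48 FPKM in F/A and 0.358 ± 0.14 FPKM in FBS/LIF (SD, n = 2 each). Gsx2 had no unique fragment in any medium, and Evx2 had 2 in F/A.

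The genes most alike in profile were ranked by Pearson's r of log2 CPM over the 10 libraries among 11152 genes, as a description. The libraries of a medium share that medium, and r over 5 pairs of libraries is easily high. The 10 include 2i/LIF, by whose values Nkx1-2 and Cdx1 were picked, so their likeness to genes high in 2i/LIF follows in part from that choice. Nkx1-2 was most like Lpin1, Axin2, Lhpp and Eme2 (r 0.98 to 0.99), and Cdx2 most like Pank1, Axin2, Ap1s2 and Eme2 (r 0.96 to 0.97). Axin2 and Eme2 were thus shared by both. Axin2 averaged 14.8 FPKM in F/A, 4.89 in L-Pro/LIF, 14.7 in 2i/LIF, 1.41 in VitC/LIF and 1.47 in FBS/LIF, so that it was highest in the 2 media in which Nkx1-2 and Cdx2 were highest. Nkx1-2 and Cdx2 themselves had an r of 0.95 (Spearman's rho 0.88), the highest among the 6 genes, and Evx1 and Gbx2 the lowest at -0.88 (rho -0.79). Cdx1 and Cdx4 had an r of -0.59 and Cdx2 and Cdx4 of 0.06.

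Cdx1 was most like Map2k6, Mfn1, Gss and Epb41l4b (r 0.98 to 0.99), and Map2k6 averaged 9.46 FPKM in 2i/LIF and between 2.73 and 3.51 FPKM in the other media. Cdx4 was most like Snx25, Ypel3, Cldn3 and Ccn2 (r 0.94 to 0.95), Evx1 most like Cnksr2, Phc2, Uhmk1 and Gba2 (r 0.97 to 0.98) and Gbx2 most like Smarcad1, Cltb, Hmces and Rmnd5b (r 0.99). The most opposite profiles were those of Fundc2 and Rab25 for Cdx1, Reps2 and Rab3il1 for Cdx2, Islr2 and Stmn3 for Cdx4, Plac8 and Ccne1 for Nkx1-2, Cenpt and Abi1 for Evx1, and Tmem164 and Rras for Gbx2 (r -0.92 to -0.99). With the first or the second library of each medium alone, these r values stayed at 0.93 or above and at -0.88 or below.

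Transcripts on the other strand overlap 3 of the 6 genes in the GENCODE vM21 annotation, and the labels state no strand setting, so reads of the shared bases could belong to either. Evx1os shares 73 exon bases with Evx1, and it had 60 and 146 unique fragments in F/A, 21 and 21 in L-Pro/LIF, 2 and 2 in 2i/LIF, 5 and 0 in VitC/LIF, and 2 and 3 in FBS/LIF. It was thus high in the media in which Evx1 was high. D130058E05Rik shares 946 bases with Gbx2 and had at most 6 unique fragments in a library, and Gm16764 shares 541 bases with Nkx1-2 and had 0.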

How the data were processed

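RNA was sequenced from 14 libraries of mouse embryonic stem cells, 10 in the media experiment (RNeasy kit) and 4 of double-positive cells (Trizol), per the labels' protocols. For the media experiment the authors deposited natural log FPKM estimates per gene with counts of unique hits and effective length, and the file headers give the mapped fragments. For the double-positive cells they deposited raw counts per gene. They also deposited a table of normalized values rounded to whole numbers, used here as a score for 3 libraries, and 5 per-sample columns of it or of the combined table were not used. The submitters' processing notes name CASAVA, TopHat2 2.0.13, HTSeq 0.6.1p1, Bowtie and DESeq and the builds mm9 and NCBIM37, without saying which step made which file. The strand setting is not given in the sources used here.

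Estimated counts were computed as FPKM times effective length times mapped fragments and rounded. Genes were filtered with edgeR's filterByExpr, scaled with TMM and fitted in 1 model of the 10 libraries with a term per medium (edgeR 4.0.16 in R 4.3.3, quasi-likelihood F test, Benjamini-Hochberg over 16033 genes, threshold 0.05). Standard errors are Wald errors from the fitted variance, held at or above counting error. As a check, 78.5% of the estimates of 7187 genes with 100 or more unique hits throughout differed from the unique hits by no more than 5%. For the double-positive libraries CPM are counts over total counts, ratios have exact 95% intervals, and a count of 0 was set at 3 counts for a ratio without an interval. Intervals and floors cover counting error only, since fragments without molecular identifiers are not independent molecules. Fits were tested on simulated data. Alternatives were DESeq2 1.42.0, limma 3.58.1 on log2(FPKM + 0.1) and log2(FPKM + 1), DESeq2 size factors, no filter, unique hits, the libraries of the 2 media only, a replicate block and leaving out each library.

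The 6 genes and the 15 gene lists (206 genes, 2 without an identifier in the files) were chosen with earlier results of these data known. Named list genes are, per list and comparison, up to 4 called genes with the largest change and up to 2 uncalled genes with the highest level, of which some are printed. Genes alike in profile were the 4 highest and 2 lowest by r among genes with a mean of 4 CPM or more in at least 1 medium. Elf5, Gata3, Hand1, Plac1, Krt18, Cdh17, Isx and Evx2, and Esrrb in double-positive cells, are named outside this rule for their levels. Promoters are from RefSeq (GRCm38.p6) for 5 of the 6 genes. That of Cdx1 was left out by choice and not for want of an entry, and Cdx1 is named only.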

Additional observations from a re-analysis of the deposited data

How the results depend on the processing

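Across the 6 tested comparisons, 270 values of the 6 genes from the settings other than leaving out a library kept their direction and their side of the threshold, 8 newly passed and 6 no longer passed. For Cdx4, L-Pro/LIF over FBS/LIF passed with unique hits (1.81), with the libraries of the 2 media only (1.81) and with limma at a pseudocount of 0.1 (1.59) or 1 (0.65). Cdx4 in F/A over VitC/LIF passed with limma (1.52 and 0.38), and with limma at a pseudocount of 1, F/A over L-Pro/LIF passed for Cdx2 (0.74) and Cdx4 (-0.49). The calls lost were those of Cdx1 in F/A over VitC/LIF (-1.31 with the libraries of the 2 media, -0.91 and -0.31 with limma) and of Gbx2 in F/A over L-Pro/LIF (-0.73, -0.51 and -0.34). The cause was not tested, though the pseudocount of 1 FPKM shrinks the change of low genes by construction: in 2i/LIF over FBS/LIF it gave 3.62 for Cdx1, 1.56 for Cdx2, -0.25 for Cdx4 and 3.19 for Nkx1-2, and 0.1 gave 5.62 for Nkx1-2. Genes called in VitC/LIF over FBS/LIF numbered 108, against 263 with no filter, 243 with unique hits, 61 with 2 media, 62 with limma at 0.1 and 432 with DESeq2. With 2 media, F/A over FBS/LIF had 4470 and F/A over L-Pro/LIF 729.

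Leaving out 1 library at a time, 123 values kept direction and call, 17 lost the call and 4 turned sign. The ranges of those that did not, with the libraries named above, were 1.08 to 1.56 for Cdx2 and 2.00 to 2.59 for Evx1 in L-Pro/LIF over FBS/LIF, 2.62 to 4.76 for Cdx4 and 2.13 to 2.76 for Evx1 in L-Pro/LIF over VitC/LIF, -1.92 to -0.69 for Cdx1 in F/A over VitC/LIF, and 2.74 to 3.36 for Evx1 and -0.85 to -0.64 for Gbx2 in F/A over L-Pro/LIF. Signs turned for values that had not passed: Cdx1 in L-Pro/LIF over FBS/LIF (-0.51 to 0.38), Cdx4 in F/A over FBS/LIF (-0.13 to 0.76), Cdx1 in F/A over L-Pro/LIF (-1.13 to 0.11) and Evx1 in VitC/LIF over FBS/LIF (-0.42 to 0.12). In 2i/LIF over FBS/LIF Cdx4 ranged from -3.06 to -1.10 and Evx1 from -1.68 to 0.98. Genes called over FBS/LIF ranged from 4345 to 8464 in F/A, 2002 to 2238 in L-Pro/LIF, 2932 to 3298 in 2i/LIF and 6 to 12 in VitC/LIF. Over VitC/LIF they ranged from 5239 to 8973 in F/A, 2860 to 3057 in L-Pro/LIF and 2150 to 2302 in 2i/LIF, and from 752 to 6296 in F/A over L-Pro/LIF. Of the 6 genes, 2 to 3 were called in L-Pro/LIF over FBS/LIF and 3 to 4 over VitC/LIF.

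The labels number the libraries 1 and 2 without saying what a number marks. With the replicate number as a block, no call of the 6 genes changed (Nkx1-2 in F/A over FBS/LIF 7.30, Cdx2 in L-Pro/LIF over FBS/LIF 1.33), and genes called over FBS/LIF were 7300 in F/A, 3730 in L-Pro/LIF and 86 in VitC/LIF. Deviations of same-numbered libraries correlated at 0.12 to 0.49 over all genes and at -0.13 to 0.59 over genes at a mean log2 CPM of 4 or more. The coefficient of variation common to all genes was 0.238 without the block and 0.189 with it. The main fit took no pairing, and whether the numbers mark paired cultures was not tested. Depth limits Cdx4, with 10 or more unique fragments in 3 of 10 libraries, and the low media of Nkx1-2 and Evx1.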
